A study of Mus musculus with 82 samples.

Results

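Laser-captured plasma cells were compared with whole sections of granuloma 17 days after pristane in study 2, 1 of 2 independent cohorts of the series. The comparison used 9 of the 82 arrays, chosen by their labels alone: 6 from captures and 3 from whole granuloma. The captured arrays came from specimens 1, 2 and 3 with 2 captures each, and each specimen also gave 1 whole-section array. All mice were BALB/c.iMycEμ, which carry a Myc gene inserted into the immunoglobulin heavy chain locus, so that it is expressed in the B lineage. All were at least 8 weeks old and had received 0.5 ml of pristane, an inflammatory mineral oil, into the peritoneum. Transgene and oil are thus common to both tissue types, and samples without them were not analysed here. The captured cells were cut from frozen sections because they stained with methyl green pyronin, a dye for the RNA-rich cytoplasm of plasma cells. The whole sections held such cells too. Tissue types were paired by the specimen number in the sample titles, and within the 9 arrays the letters matched too. The labels do not say that specimens are separate animals, so every p-value measures only the spread between samples. In the main fit that spread was pooled over all groups of both studies (53 averages) and not taken from the 9 arrays alone.

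Plasma cells are the antibody-secreting end stage of the B lineage. The factors Prdm1, Irf4 and Xbp1 shut down the B cell programme, including MHC class II antigen presentation, and build up the secretory endoplasmic reticulum. Pristane is taken up by macrophages and provokes oil granulomata on the mesothelium and the fat of the mesentery. Plasma cells gather there near stromal and myeloid cells that make interleukin 6, and the plasma cell tumors of mice arise in this setting.

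Values are log2 array values, quantile-normalized over all 82 arrays, with the captures of 1 specimen averaged. The deposited array medians were 5.33 to 5.37 in captured cells and 7.22 to 7.30 in whole granuloma, so the tissue types are compared only after normalization. The deposited maxima were closer, 14.64 to 14.72 and 14.90 to 14.96. Centring arrays on their medians therefore places the brightest probe sets of captured cells above those of whole granuloma. Probe sets at the 3′ ends of the actin and Gapdh control transcripts exceeded those at the 5′ ends by 4.11 to 5.31 in captured cells and by 1.49 to 1.84 in whole granuloma. These ranges did not overlap, so within the 9 arrays this sign of RNA quality and the tissue type cannot be told apart. A fit with the 3′ minus 5′ difference as a covariate over all groups gives the values named below as those with the covariate. Its slope comes from differences within the 19 groups and is carried over the gap between the tissue types. Calls kept or lost with it therefore cannot separate RNA quality from tissue type and are only a description. Captures of the same specimen correlated over probe sets at 0.987 to 0.993, captures of other specimens at 0.976 to 0.988, and captured cells with whole granuloma at 0.909 to 0.946. These arrays share their probes, and the correlations are a description. The 6 Y-linked probe sets read 2.85 to 3.77 on all 9 arrays, where Xist was high, which shows the level of probe sets without target.

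Of 8614 genes tested with limma, 1736 were higher in captured cells (20.2% of the genes tested) and 1622 were lower (18.8%) at a Benjamini-Hochberg adjusted p under 0.05. The counts of the gene lists below are to be read beside these shares. At least 2-fold were 976 of the higher and 1051 of the lower genes. The sign was the same in 3 of 3 specimens for 1686 of the higher and 1553 of the lower genes. The specimen values of the tissue types overlapped for 252 called genes. These counts were taken among genes called on the same values, so they are a description and no separate support. The same holds below where a called gene is said not to overlap. The median gene differed by 0.01. The higher genes made up 51.7% of the calls here, 67.3% with each array centred on its median, 0.529% on deposited values, where the median gene was at −1.65, and 49.0% on deposited values relative to that median. On deposited values 24 of 146 named genes, each called there or here, and 9 of 29 list medians turned their sign, and relative to that median no named gene called on either side did. With the 3′ minus 5′ covariate 764 genes were higher and 1454 lower, and the median gene was at −0.30.

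Of 20 listed plasma cell genes 17 were tested, of which 9 were higher in captured cells (52.9%) and 8 did not pass, with a median difference of 0.74 against 0.01 over all genes. With the covariate 1 was higher, Slamf7, and the list's median was −0.30, as was that of all genes. In bulk samples such as the whole sections, fewer cells of a type and less RNA per cell cannot be told apart. Slamf7, a surface receptor of plasma cells, read 8.10, 8.30 and 8.48 in captured specimens 1, 2 and 3 and 6.12, 6.11 and 6.15 in the whole sections. All captured specimens were above all whole sections, by 2.17 on the log2 scale in the fit (SE 0.32, limma adjusted p = 1.7e-06). Eaf2, an elongation factor gene of the late B lineage, read 9.52, 10.15 and 9.76 against 7.08, 7.06 and 7.47, again without overlap (2.61, SE 0.52, limma adjusted p = 0.000121). Bhlha15, which codes for the secretory cell factor Mist1 and was not on the list, read 9.39, 10.34 and 10.42 against 7.71, 8.12 and 5.76. It was 1 of the 12 largest increases (2.85, SE 0.50, limma adjusted p = 2.64e-05), and its other probe set was higher too, by 0.39.

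The 3 master factors of the plasma cell were all higher. Prdm1, the repressor that ends the B cell programme, read 8.37, 8.85 and 8.61 in captured cells and 7.60, 7.06 and 6.13 in whole granuloma (difference 1.68, SE 0.43, limma adjusted p = 0.00219). Xbp1, the activator of secretory genes, read 12.08, 12.32 and 12.34 against 11.23, 11.67 and 11.27 (0.86, SE 0.21, limma adjusted p = 0.00158). Irf4 read 9.24, 9.67 and 9.90 against 9.18, 8.94 and 7.52 (1.06, SE 0.41, limma adjusted p = 0.0363). The captured values were above all whole sections for each of the 3 genes, narrowly for Irf4. Whole section 3 was the lowest for Prdm1 and Irf4, and without specimen 3 neither passed (1.28 and 0.40). Tnfrsf17, the survival receptor BCMA, was higher by 1.59 (SE 0.52, limma adjusted p = 0.0143). Smaller increases were those of Creb3l2 (1.15), a membrane-bound stress factor gene, and of Pou2af1 (0.74), a B lineage coactivator gene.

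Other plasma cell genes did not pass. Sdc1, the plasma cell surface proteoglycan CD138, read 9.04, 9.60 and 9.81 in captured cells and 9.31, 9.81 and 8.32 in whole granuloma (0.34, limma adjusted p = 0.356). The J chain gene Jchain read 12.76, 12.94 and 12.87 against 12.44, 12.39 and 12.38 (0.46, limma adjusted p = 0.196). Jchain did not overlap but missed the threshold, and with arrays centred on their medians it passed (1.54), as did Sdc1 (0.82). Tnfrsf13b, the survival receptor TACI (−0.30), and Derl3, a retrotranslocation gene (0.05), also missed it, and Cd38 was not tested. Myc read 8.93, 10.08 and 9.96 against 9.42, 9.62 and 8.57, overlapping (0.45, SE 0.35, limma adjusted p = 0.311), although with arrays centred on their medians it passed (0.96). The count of 9 fell to 4 without specimen 3. Bhlha15 was at 0.87 with the covariate and did not pass.

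**Figure D1:**
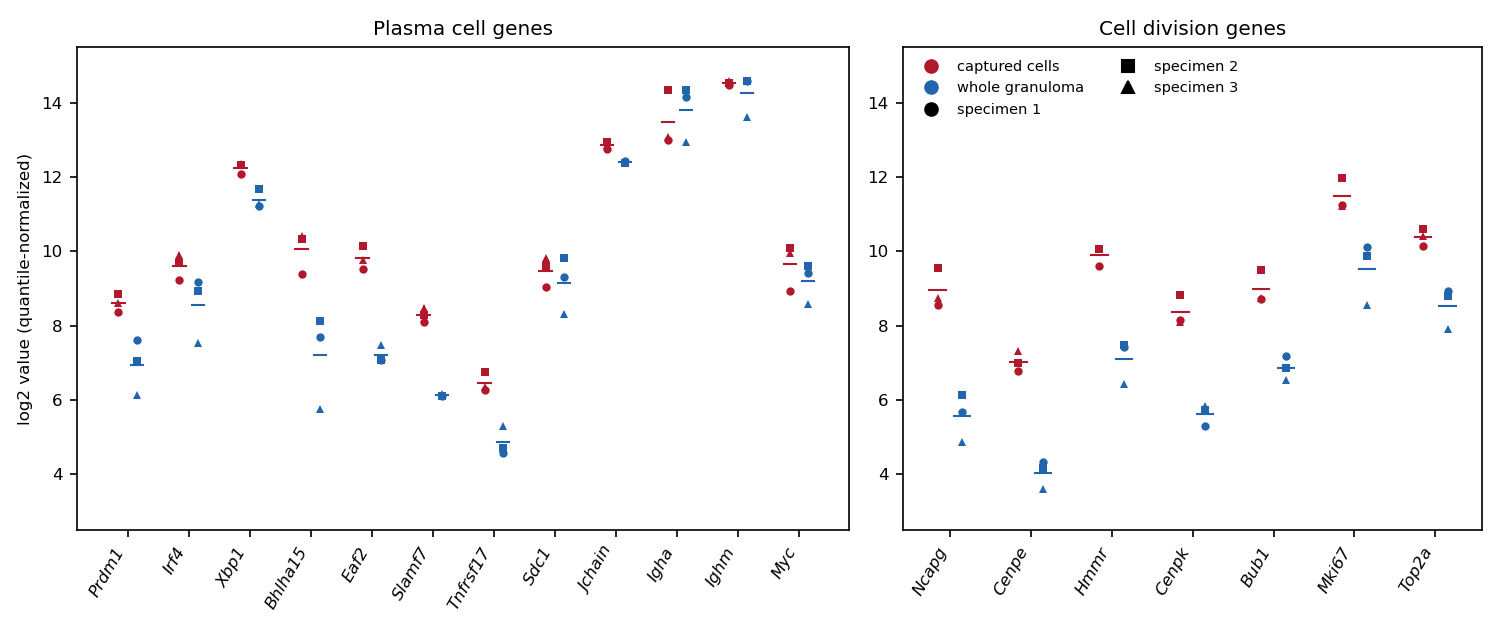
Quantile-normalized log2 values of plasma cell genes (left) and cell division genes (right) in captured cells (red) and whole granuloma (blue), with 1 point per specimen (shapes) and bars at the means of 3 specimens. Slamf7, Eaf2 and the division genes separate without overlap, whereas Sdc1, Myc, Igha and Ighm overlap.

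Of 16 tested immunoglobulin genes 1 was higher and 1 lower (6.25% each, below the shares of all genes). The other 14 did not pass, and the median was −0.71. With the covariate none was higher and 1 was lower. Ighm, the mu heavy chain gene, read 14.47, 14.52 and 14.57 in captured cells and 14.57, 14.57 and 13.62 in whole granuloma, near the top of the array's range (0.27, SE 0.71, limma adjusted p = 0.794). Its 10 other probe sets lay between −4.24 and 0.00 with 3 called lower, and the mean over its probe sets passed as lower (−1.46). Centring on array medians, which lifts the brightest probe sets of captured cells, instead let Ighm pass as higher (1.83). Igha, the alpha heavy chain gene, read 13.00, 14.34 and 13.07 against 14.16, 14.35 and 12.94, without separation (−0.35, SE 0.93, limma adjusted p = 0.795). Ighg3 (−1.08) and Igk (0.01) missed the threshold as well, and 2 of 3 other Igk probe sets were called higher. The called genes were kappa variable genes. Igkv19-93 read 7.26, 8.71 and 8.43 against 5.85, 5.74 and 5.48 (2.44, SE 0.66, limma adjusted p = 0.00342). Igkv4-68 read 3.33, 3.41 and 3.22, at the level of probe sets without target, against 6.39, 6.43 and 5.94 (−2.94, SE 0.46, limma adjusted p = 3.82e-06). Members of this family are similar in sequence, so their probe sets may share signal.

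The genes that varied most between captures of the same specimen were kappa variable genes too. Igkv6-14 read 7.50 and 5.33 in the captures of specimen 1, 9.12 and 4.74 in those of specimen 2 and 4.85 and 5.73 in those of specimen 3. The whole sections read 7.10, 9.00 and 6.66. Thus 1 capture of specimen 2 matched its section and the other lay far below it. Igkv15-103 read 4.73 and 5.98, 7.00 and 4.38, and 4.26 and 7.52 in the captures of specimens 1, 2 and 3. Igkv9-120 read 7.72 and 8.13, 9.05 and 5.71, and 4.55 and 7.85 in the same order. None of the 3 genes passed between the tissue types in the fit (limma adjusted p = 0.28, 0.514 and 0.244). Over all genes tested the captures of specimens 1, 2 and 3 were at least 2-fold apart for 203, 87 and 29 genes. The median SD was 0.186 between captures of 1 specimen, 0.232 between captured specimens and 0.320 between whole sections.

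The unfolded protein response lets a cell that folds much protein enlarge its endoplasmic reticulum through the sensors Atf6 and Ern1, the latter of which activates Xbp1. Of 29 tested genes of this response and of secretion 6 were higher (20.7%, near the 20.2% of all genes) and 23 did not pass, and the median was 0.35. Atf6 read 7.94, 8.62 and 8.01 in captured cells and 7.22, 7.08 and 5.45 in whole granuloma (1.61, SE 0.31, limma adjusted p = 7.55e-05). Dnajc3, which codes for a chaperone partner of BiP, read 9.84, 10.25 and 9.79 against 8.70, 8.53 and 7.90 (1.58, SE 0.57, limma adjusted p = 0.0259). Hspa5, the gene of BiP itself, read 13.52, 13.72 and 13.41 against 13.16, 13.04 and 12.06 (0.80, SE 0.32, limma adjusted p = 0.0477). None of these 3 overlapped, and whole section 3 was the lowest of the 6 values for each. Sec61b, a subunit of the translocation channel (1.17), Edem1, which sends misfolded glycoproteins to degradation (1.10), and Ssr1, a translocon-associated subunit (0.71), completed the 6. The calls numbered 2 without specimen 2, 2 without specimen 3 and 1 with the covariate, where 3 were lower and the median was −1.15, and 20 with arrays centred on their medians. The difference with the covariate was also negative for Dnajc3 (−0.49), Sec61b (−0.57) and Edem1 (−1.15).

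Many genes of this list carry the endoplasmic reticulum stress element, the sequence bound by Atf6 and Xbp1 together with a CCAAT factor. It was searched for as CCAAT and CCACG separated by any 9 bases, on both strands, from 250 bases before to 50 after the start site (RefSeq promoters, GRCm38.p6). It was found in 9 of the 26 list genes with a promoter entry, against 37 of 27025 genes of the table (0.137%). The 9 were Calr, Canx, Creld2, Dnajc3, Ero1b, Hsp90b1, Hspa5, Pdia6 and Syvn1, and of these Dnajc3 and Hspa5 passed the threshold. Creld2 was at 1.06 and Syvn1 at 0.70 without passing (limma adjusted p = 0.112 and 0.12), and Hsp90b1, with 2 matches, was at 0.27. The stretches of the called genes and of Hsp90b1 are shown with the matches in capitals, on the strand of the gene and up to the base before its start site. They lie at chr2:34771985-34772089 for Hspa5 and chr14:118937787-118937931 for Dnajc3, both on the plus strand, and at chr10:86705445-86705694 on the minus strand for Hsp90b1. A match to these letters is a description and not evidence of binding.
Hspa5: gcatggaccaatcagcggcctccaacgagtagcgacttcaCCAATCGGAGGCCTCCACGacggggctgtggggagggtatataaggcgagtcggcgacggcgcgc
Dnajc3: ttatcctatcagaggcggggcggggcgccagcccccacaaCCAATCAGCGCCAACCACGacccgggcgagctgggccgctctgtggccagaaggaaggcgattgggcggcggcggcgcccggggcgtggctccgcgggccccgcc
Hsp90b1: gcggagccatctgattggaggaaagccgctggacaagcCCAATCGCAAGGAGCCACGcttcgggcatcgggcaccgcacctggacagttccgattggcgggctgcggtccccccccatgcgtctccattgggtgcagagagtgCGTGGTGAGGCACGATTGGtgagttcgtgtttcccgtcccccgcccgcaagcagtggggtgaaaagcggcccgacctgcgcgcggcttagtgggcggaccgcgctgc

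Cell division genes were among the largest increases. Of 24 tested cell cycle genes 11 were higher (45.8%, against 20.2% of all genes), 1 was lower and 12 did not pass. Their median of 0.93 was the highest of the 29 lists. Ncapg, a condensin subunit gene, read 8.57, 9.55 and 8.74 in captured cells and 5.67, 6.13 and 4.88 in whole granuloma (3.39, SE 0.37, limma adjusted p = 4.43e-09). It was the largest increase, and its other probe set gave 3.42. Cenpe, the kinetochore motor, read 6.77, 6.99 and 7.32 against 4.34, 4.17 and 3.61 (2.99, SE 0.41, limma adjusted p = 4.86e-07). Hmmr, a spindle protein, read 9.59, 10.05 and 10.06 against 7.43, 7.47 and 6.43 (2.79, SE 0.39, limma adjusted p = 5.19e-07). The captured specimens stood at least 2 log2 units above every whole section for these 3 genes. On the list, the kinetochore gene Cenpk differed by 2.74, the spindle checkpoint kinase gene Bub1 by 2.12, the proliferation marker Mki67 by 1.96 and the topoisomerase gene Top2a by 1.85. Mki67 read 11.25, 11.97 and 11.22 against 10.13, 9.87 and 8.56 (SE 0.40, limma adjusted p = 0.000189). Replication licensing genes went apart, Mcm2 up (1.54) and Mcm5 down (−1.24). The count of 11 fell to 5 without specimen 2, to 5 without specimen 3 and to 2 with the covariate, where 3 were lower. The list's median with the covariate was −0.32, against −0.30 over all genes. Under that covariate Ncapg, Cenpe, Cenpk and Bub1 kept their calls and Hmmr, Mki67 and Top2a lost them (1.56, 0.87 and 0.16).

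The other large increases were spread over several functions. Mrpl47, a mitochondrial ribosomal protein gene, read 9.55, 10.08 and 9.82 against 6.12, 7.27 and 6.95 (3.04, SE 0.36, limma adjusted p = 2.22e-08). Ahctf1, which codes for the nuclear pore protein ELYS, differed by 2.84 (SE 0.28, limma adjusted p = 5.48e-10) and Sdad1, a ribosome assembly gene, by 2.79 (SE 0.22, limma adjusted p = 6.18e-12). Polr3k, an RNA polymerase III subunit gene, differed by 2.75 and the zinc finger gene Zscan26 by 2.88, and neither passed with the covariate. Among 1568 called genes with another probe set, 170 had at least 1 called in the opposite direction. Probe sets also differed for the next 3 of the largest increases. Rpgrip1 was at 3.32 and its 3 other probe sets at −0.15 to 1.07. The nuclear noncoding RNA Malat1 was at 2.98 and its 4 others at −0.45 to 2.38. Myh9, nonmuscle myosin, was at 2.74 and its 3 others at −1.24 to −0.55, 1 of them called lower, and the mean over its probe sets was 0.06 and did not pass.

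Of the 12 largest decreases 5 were on the adipocyte list. Of 12 tested adipocyte genes 10 were lower and 2, Pparg and Lpl, did not pass, with a median of −2.76. Adipoq, the fat hormone adiponectin, read 7.60, 6.84 and 3.70 in captured cells and 12.04, 11.49 and 10.52 in whole granuloma (−5.30, SE 1.24, limma adjusted p = 0.00082). Captured specimens 1 and 2 were still above the level of probe sets without target and specimen 3 was at it. Thrsp, a lipogenic factor, showed the same order, 7.89, 7.75 and 4.78 against 12.57, 12.22 and 11.42 (−5.26, SE 1.17, limma adjusted p = 0.000479). Cidec, which fuses lipid droplets, was near the bottom in all captured specimens, 3.91, 3.90 and 3.41 against 10.60, 9.16 and 7.26 (−5.27, SE 0.81, limma adjusted p = 3.38e-06). Car3, a carbonic anhydrase of fat, stayed high in captured specimens 1 and 2, with 11.54, 10.86 and 4.86 against 13.43, 13.23 and 12.32 (−3.91, SE 1.44, limma adjusted p = 0.0281). Without specimen 3 Car3 was at −2.13 and did not pass. The desaturase gene Scd1 was at −3.85. Beyond the list, Cyp2e1 (−5.04), Amy1 (−4.71), Cdo1 (−4.66), Ces1d (−4.23), Dgat2 (−3.92) and Gpd1 (−3.80), metabolic enzyme genes, were also among the 12 largest decreases. Another Gpd1 probe set was called higher (0.82). With the covariate 3 of the adipocyte genes passed, Cidec among them.

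Smooth muscle genes were mostly lower, with large spread between the whole sections. Of 11 tested genes 7 were lower and 4 did not pass, with a median of −2.48. Actg2, the enteric smooth muscle actin, read 4.01, 4.18 and 4.09 in captured cells and 7.41, 11.60 and 5.63 in whole granuloma (−4.12, SE 1.13, limma adjusted p = 0.0037). Myh11, smooth muscle myosin, read 3.68, 4.43 and 3.76 against 7.23, 9.83 and 6.09 (−3.76, SE 0.85, limma adjusted p = 0.000583). Calponin, Cnn1, read 3.56, 3.53 and 3.36 against 6.10, 9.92 and 4.84 (−3.47, SE 0.99, limma adjusted p = 0.00507). Whole section 2 was the highest for all 3 and the captured specimens lay near the level of probe sets without target. Without specimen 2 Actg2 was at −2.47 without passing, and 2 list genes passed instead of 7. With the covariate 1 passed. A CArG box, the site of serum response factor, was found on both strands of the same promoter window in 1 of 9 list genes with an entry, Myl9, against 1.81% of genes. Myl9, the regulatory light chain, was lower by 2.70 (SE 0.95, limma adjusted p = 0.0228). Its match is shown in capitals, at chr2:156775263-156775463 of GRCm38.p6, plus strand, up to the base before the start site.
Myl9: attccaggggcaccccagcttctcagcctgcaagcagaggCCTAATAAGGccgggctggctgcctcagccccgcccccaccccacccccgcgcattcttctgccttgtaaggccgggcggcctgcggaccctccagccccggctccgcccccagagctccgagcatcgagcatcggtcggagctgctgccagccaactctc

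Macrophage genes were lower in most called cases. Of 22 tested genes 10 were lower (45.5%, against 18.8% of all genes), 1 was higher and 11 did not pass. The median was −0.96. Arg1, the arginase of alternatively activated macrophages, read 10.45, 7.84 and 8.68 in captured cells and 11.89, 12.51 and 11.83 in whole granuloma (−3.08, SE 0.76, limma adjusted p = 0.00142). Marco, a scavenger receptor, read 7.88, 6.58 and 5.10 against 8.18, 9.99 and 11.11 (−3.24, SE 0.74, limma adjusted p = 0.000666). Cd68 read 9.57, 8.71 and 9.06 against 10.62, 11.42 and 10.28 (−1.66, SE 0.52, limma adjusted p = 0.0105). None of the 3 overlapped between the tissue types, and captured specimen 1 was the highest of the captured specimens for all 3. Macrophage transcripts were thus well above the level of probe sets without target in the captured cells, and the mean level of the list was 9.62, 8.51 and 8.65 there against 9.93, 10.17 and 9.51. Their part in the other results was not tested. The mannose receptor gene Mrc1 was the exception, higher by 1.02. Lower calls numbered 2 without specimen 2, 6 without specimen 3, 7 with the covariate, where none was higher, and 3 with arrays centred on their medians.

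MHC class II genes were lower almost throughout, 6 of 7 tested, with H2-Oa (−0.62) not passing and a median of −2.18. Cd74, the invariant chain, read 8.84, 8.19 and 8.06 against 10.92, 11.07 and 11.48 (−2.79, SE 0.53, limma adjusted p = 6.5e-05). H2-Ab1, a class II beta chain, read 9.94, 9.19 and 8.84 against 11.08, 11.26 and 12.17 (−2.18, SE 0.44, limma adjusted p = 0.000172). Whole section 3 was the highest for both and no specimen overlapped. H2-Eb1 differed by −2.22, H2-Aa by −2.11 and the peptide loading gene H2-DMb2 by −2.88, and with the covariate 5 of the 7 still passed. Complement genes were lower in 3 of 7, of which Cfb, factor B of the alternative pathway, read 7.75, 6.78 and 6.93 against whole values between 10.46 and 11.19 (−3.73, SE 0.40, limma adjusted p = 4.02e-09). Properdin, Cfp, was at −2.12 and the C5a receptor C5ar1 at −1.54, and all 3 kept their calls with the covariate, under which 4 were lower.

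**Figure D2:**
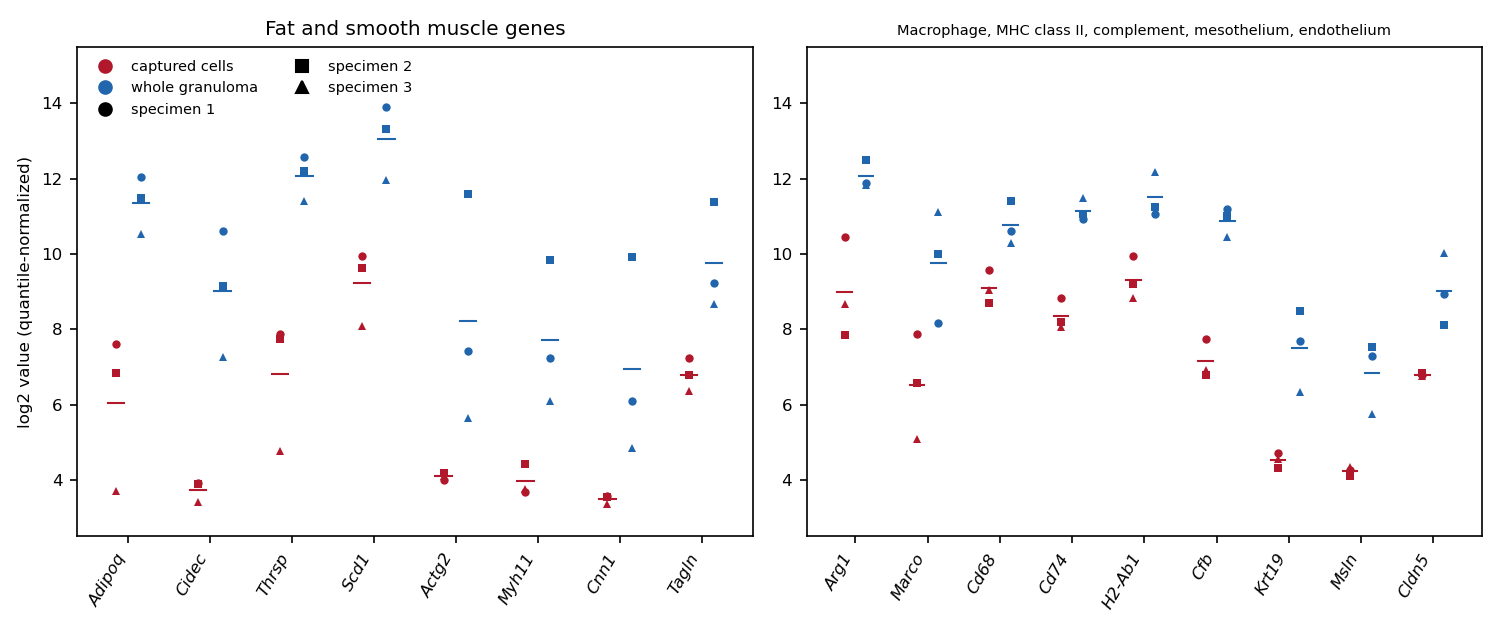
Quantile-normalized log2 values of fat and smooth muscle genes (left) and of macrophage, MHC class II, complement, mesothelial and endothelial genes (right) in captured cells (red) and whole granuloma (blue), with 1 point per specimen and bars at the means. The whole sections are higher for every gene plotted, section 2 is far above the others for Actg2 and Cnn1, and captured specimen 3 is the lowest for Adipoq and Thrsp.

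The mesothelial and endothelial lists held more lower than higher calls, whereas the fibroblast list had smaller shares of calls than all genes in both directions. Mesothelial and epithelial genes were lower in 3 of 8 (37.5%, against 18.8% of all genes, median −1.04). Keratin 19, Krt19, read 4.72, 4.31 and 4.56 against 7.68, 8.50 and 6.34 (−2.98, SE 0.56, limma adjusted p = 5.58e-05). Mesothelin, Msln, was at −2.61 and the mesothelial marker Upk3b at −2.54, and without specimen 3 the calls numbered 5. With the covariate 2 were lower and the median was −2.10. Endothelial genes were lower in 5 of 14 (35.7%, against 18.8% of all genes) and higher in 1, with a median of −0.62. The tight junction gene Cldn5 differed by −2.23, the lymphatic receptor gene Lyve1 by −1.74, Pecam1 by −1.32 and the VEGF receptor gene Kdr by −1.21, against 1.12 for the other VEGF receptor gene Flt1. Without specimen 3 the lower endothelial calls numbered 3, and with the covariate 4 were lower and none was higher. Of 21 tested fibroblast and matrix genes 2 were higher (9.5%, below the 20.2% of all genes) and 3 were lower (14.3%, below the 18.8% of all genes). The other 16 did not pass (median −0.21, but 0.93 with arrays centred on their medians). With the covariate none was higher and 4 were lower, with a median of −1.18. Collagen Col1a1 read 9.67, 9.05 and 10.44 against 8.52, 9.14 and 5.57, with overlap (1.98, SE 0.56, limma adjusted p = 0.00453). Its other probe set was at −0.80 and was not called. The Col1a1 call was lost without specimen 3 (0.53), as was that of Pdgfrb (1.48), a mural cell receptor gene. The matrix genes Sparc (−1.74) and Fbln1 (−1.42) lost theirs without specimen 2 (−1.27 and −0.92).

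Neutrophil genes were lower in 4 of 11 (36.4%, against 18.8% of all genes) and higher in 1, namely Elane (0.88). Lcn2 was at −1.51, Mmp9 at −1.37 and Cxcr2 at −1.01. Without specimen 2 the lower calls numbered 1, as with the covariate. The mast cell protease gene Cpa3 was higher (1.62) and the mast cell receptor gene Kit lower (−1.54), so that 1 of 4 mast cell and eosinophil genes was higher and 2 were lower. With the covariate none was higher and 1 was lower. Of 4 dendritic cell genes Batf3 was lower (−0.77). It lost its call without specimen 3 (−0.28) and with the covariate, where 1 other gene of the list was higher. None of the 10 pancreatic acinar genes tested passed with limma, nor did any at an unadjusted p under 0.05. The only erythroid gene tested, Alas2, was at −1.27 and did not pass, but was called lower with the covariate (−2.89) and on deposited values relative to the median gene (−1.52).

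B cell genes apart from the plasma cell list were lower in 3 of 9 (33.3%, against 18.8% of all genes), and 6 did not pass. The tetraspanin gene Cd37 read 6.18, 5.95 and 5.55 against 7.29, 7.94 and 8.50 (−2.02, SE 0.39, limma adjusted p = 0.000101), without overlap. The B cell factor Spib was at −1.49 and the antigen receptor chain Cd79a at −1.14. Both were highest in whole section 3, and without specimen 3 only Cd37 among these passed. With the covariate 1 B cell gene was lower. Of 10 T and NK cell genes Cd2 (−1.66) and Thy1 (−1.24) were lower (20%, near the 18.8% of all genes). Gzmb (0.71) was higher, and Cd3e did not pass (−0.56, limma adjusted p = 0.0563). The median of −0.86 rested on specimen 3, since without its captures and whole section it was 0.22, with 1 gene higher. With the covariate none was higher and 1 was lower. The mean level of the T and NK list was 5.70, 5.76 and 8.60 in whole sections 1, 2 and 3 and 5.97, 5.78 and 6.00 in captured cells.

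Whole section 3 stood apart by lymphoid transcripts that the captured cells of the same specimen did not show. The genes described next were picked for that gap and are given without a test. Glycam1, the ligand on high endothelial venules of lymph nodes, read 12.02 there against 3.74 and 3.80 in sections 1 and 2 and 4.50 in captured specimen 3. The T cell receptor gene Trbv1 read 11.40 against 4.67 and 4.97, and the CD3 chain gene Cd3d 11.07 against 5.03 and 5.06. The T cell chemokine Ccl5 read 11.47 against 6.60 and 6.80, and granzyme A, Gzma, 9.71 against 5.43 and 5.50. The captured specimens stayed close to sections 1 and 2 for these genes. The same section had the lowest whole-section mean of the plasma cell list, 8.14 against 8.75 and 8.76, where captured cells were at 9.19, 9.55 and 9.55. The values without specimen 3 given above leave out its captures together with this section. The part of the section alone in the plasma cell results was not tested.

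**Figure D3:**
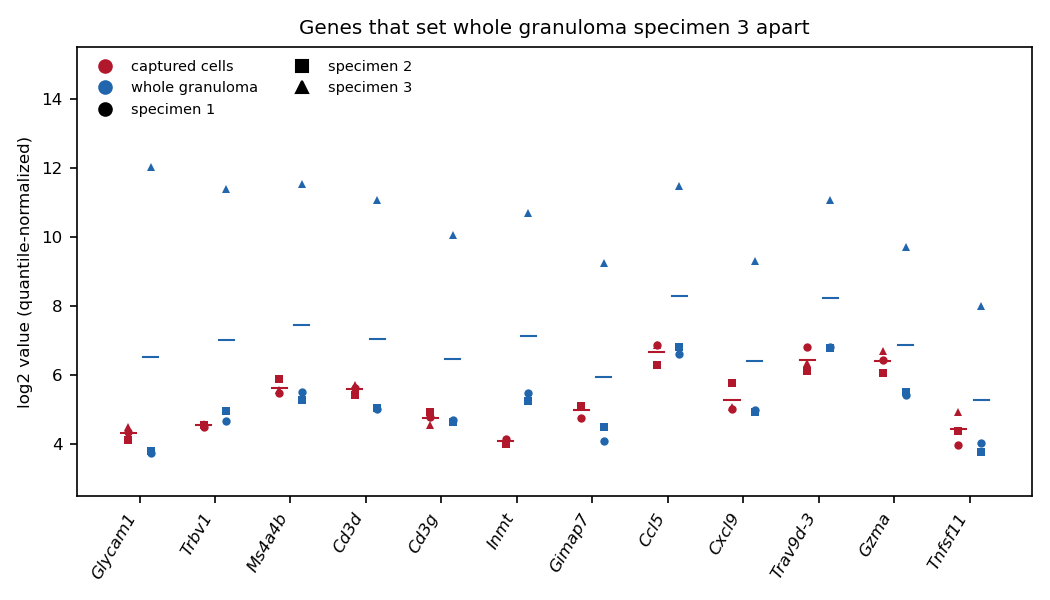
Quantile-normalized log2 values of the 12 genes with the largest gap between whole section 3 and the mean of sections 1 and 2, in captured cells (red) and whole granuloma (blue), with 1 point per specimen and bars at the means. Section 3 (blue triangles) lies above all other points for every gene, with Glycam1 at 12.02.

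Genes of acute signalling were mostly lower. Of 18 tested immediate early genes, which respond within minutes to stimulation, 11 were lower, 1 was higher and 6 did not pass, with a median of −1.19. The quiescence factor Klf2 read 8.08, 7.46 and 6.73 against 8.80, 9.40 and 9.56 (−1.83, SE 0.38, limma adjusted p = 0.000227). Klf6 was at −1.77, Egr2 at −1.57 and Zfp36, which codes for an RNA-binding protein that destabilizes cytokine transcripts, at −1.57. Zfp36 read 6.66, 6.61 and 6.79 against 8.56, 8.27 and 7.92 (SE 0.34, limma adjusted p = 0.000321) and kept its call with the covariate, under which 5 list genes were lower and none was higher. Egr3 was higher by 0.67. Without specimen 2 the lower calls numbered 7.

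Interleukin 6 and its pathway, a growth signal of plasma cells, were not higher in captured cells by the test. Il6 read 6.13, 6.15 and 6.64 against 5.64, 5.69 and 5.32, all captured specimens above all sections, but it did not pass (0.76, SE 0.65, limma adjusted p = 0.367), except with quantile normalization over the 9 arrays alone (0.79). Its receptor Il6ra overlapped (−0.09). Of 12 genes of the IL-6, STAT3 and B cell survival list 5 were lower and 7 did not pass. The lower genes were the kinase Jak1 (−1.11), the signal transducer Stat3 (−0.90), the coreceptor Il6st (−0.85), the NF-kB cofactor Bcl3 (−1.30) and the survival gene Bcl2 (−1.15). Other probe sets of Jak1 (0.98) and Stat3 (0.83) were called higher. Bcl2 read 4.67, 4.35 and 4.56 against 5.66, 5.20 and 6.17 (SE 0.24, limma adjusted p = 0.000215), and without specimen 2 the lower calls numbered 1. With the covariate 5 list genes were lower and the median moved from −0.19 to −1.27.

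Cytokine genes took both directions, with 3 of 21 higher (14.3%) and 5 lower (23.8%), shares not far from those of all genes. The higher genes were the chemokine Ccl12 (1.63), the anti-inflammatory cytokine Il10 (1.54) and the homing receptor Cxcr4 (1.43). Il10 read 4.72, 5.70 and 5.64 against 3.83, 3.78 and 3.84 (SE 0.43, limma adjusted p = 0.00408), so the whole sections lay near the level of probe sets without target. Lower were the interleukin 1 antagonist Il1rn (−2.58), the neutrophil chemokine Cxcl2 (−2.61), the T cell chemokine Cxcl10 (−1.70), Tgfb1 (−1.33) and Ccl7 (−1.06). Cxcl2 read 8.09, 5.80 and 4.99 against 8.67, 8.77 and 9.27 and was at 0.55 with the covariate, under which 1 cytokine gene was higher and 1 lower. Without specimen 3 the lower calls numbered 3, and without specimen 1 they numbered 8. Of 13 interferon response genes Irf7 (−1.68), Irf1 (−0.77) and Oas1a were lower (23.1%, near the 18.8% of all genes). These calls were lost without specimen 3 and with the covariate.

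Of 24 Myc target and ribosome biogenesis genes 5 were higher (20.8%, near the 20.2% of all genes) and 2 were lower (median 0.29), among them the nucleolar genes Wdr12 (1.73) and Nop56 (1.72) and, lower, the lactate dehydrogenase gene Ldha (−1.33). Wdr12 read 9.62, 9.75 and 9.32 against 8.13, 7.58 and 7.81 (SE 0.32, limma adjusted p = 5.25e-05), without overlap. The higher calls numbered 2 without specimen 3, 1 with the covariate, where 5 were lower, and 11 with arrays centred on their medians. Glycolysis genes were lower in 5 of 11, namely Pfkl (−1.61), Aldoa (−1.59), Pkm (−1.43), Ldha and Hk1 (−0.88). Pfkl and Aldoa kept their calls under the covariate, and Aldoa read 9.80, 9.22 and 9.77 against 10.97, 11.54 and 11.03. The lower calls numbered 3 without specimen 1 and 3 without specimen 2. The list's median was −0.16, and 0.50 with arrays centred on their medians. With the covariate 7 were lower and the median was −1.31.

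Mitochondrial ribosomal protein genes were higher in 19 of 74 (25.7%, against 20.2% of all genes) and lower in 5 (median 0.39). Mrpl47 and Mrpl22 (1.85) led the increases. Higher calls numbered 11 without specimen 2, 4 with the covariate, where 7 were lower, and 36 with arrays centred on their medians. Cytosolic ribosomal protein genes were higher in 7 of 41 (17.1%, below the 20.2% of all genes) and lower in 1, with Rpl12 at 1.62, Rpl37 at 1.35 and Rps9 at −1.23. With the covariate 2 were higher and 18 lower, and centring on array medians made 33 higher. Higher calls numbered 4 without specimen 1 and 2 without specimen 2. Respiratory chain and ATP synthase genes were higher in 13 of 80 (16.3%, also below that of all genes) and lower in 5. Sdhc, a complex II subunit, read 7.31, 7.66 and 7.45 against 9.14, 9.60 and 9.45 (−1.92, SE 0.25, limma adjusted p = 1.74e-07), and the ATP synthase subunit Atp5b was at −1.80. The assembly factor Ndufaf4 was at 1.64 and the ATP synthase subunit Atp5g1 at 1.68. With the covariate 2 were higher and 23 lower, and with arrays centred on their medians 41 were higher. Higher calls numbered 6 without specimen 1 and 6 without specimen 2.

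Of 38 proteasome genes 8 were higher and 8 lower (21.1% each, near the 20.2% and 18.8% of all genes), with a median of −0.01. With the covariate 2 were higher and 9 lower, with a median of −0.72. The lower genes included 2 of the 3 immunoproteasome subunits, Psmb10 (−1.90) and Psmb8 (−1.38), which replace standard subunits under interferon. Psmb2 (−1.63) and Psmc5 (−1.63), which are not the subunits so replaced, were lower too. Psmb10 read 7.84, 7.74 and 7.70 in captured cells and 9.08, 9.42 and 10.48 in whole granuloma (SE 0.35, limma adjusted p = 4.2e-05). Psmb3 was higher by 1.25, and Psmc3ip, which the symbol rule took in although it is no proteasome subunit, by 0.89. The higher calls numbered 4, 3 and 5 without specimens 1, 2 and 3 in turn and 18 with arrays centred on their medians.

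**Figure D4:**
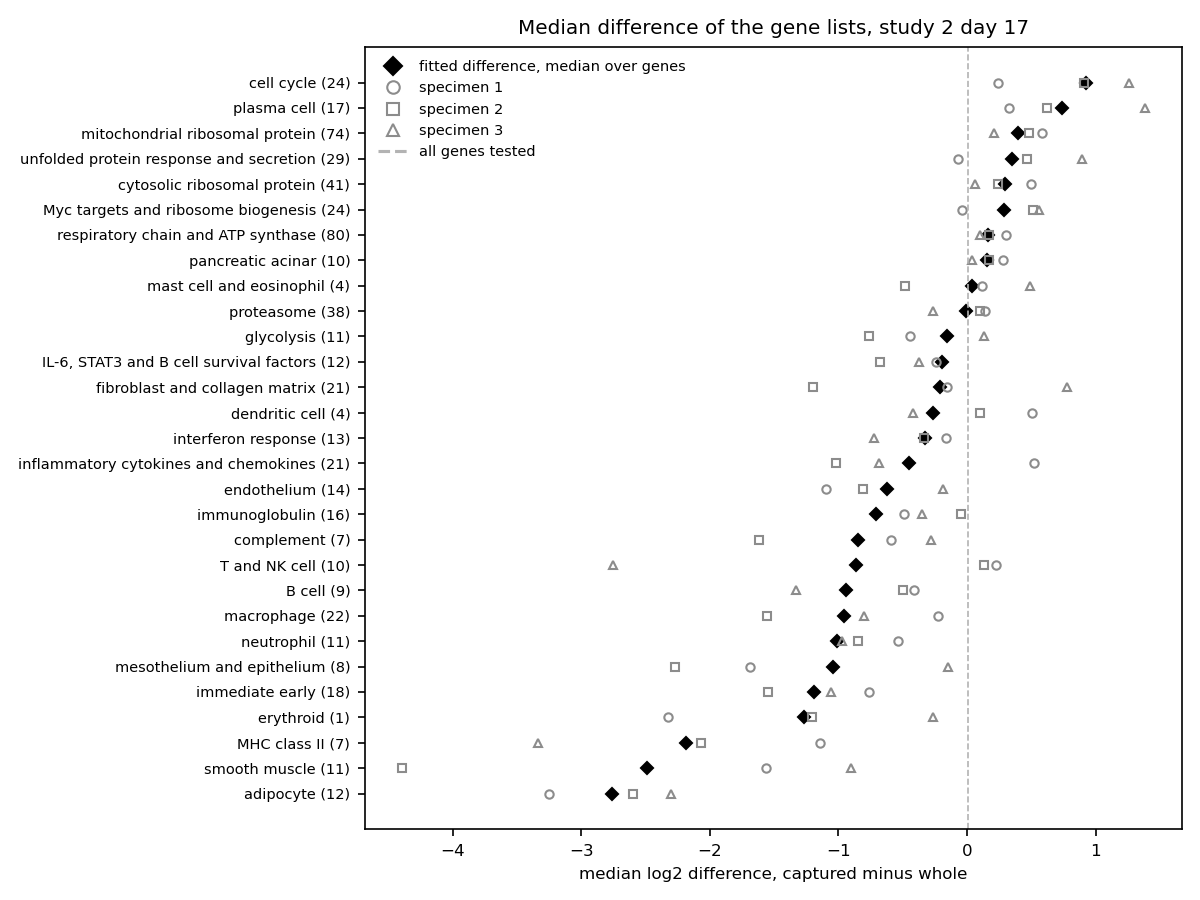
Median log2 difference, captured minus whole, of the 29 gene lists (number of genes tested in brackets), with the median of the fitted differences (black diamonds), the medians in the 3 specimens (open shapes) and the median of all genes tested (dashed line). Cell cycle (0.93) and plasma cell (0.74) lists are at the top and adipocyte (−2.76) and smooth muscle (−2.48) lists at the bottom, and specimen 3 lies apart for T and NK cell genes.

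Day 17 was compared with the mean of the other days of study 2, which were 7, 33, 49 and 105 and had their own whole sections. The difference between the tissue types differed for 7 of 8614 genes (0.0813% of the genes tested, 6 in the higher and 1 in the lower direction, limma adjusted p under 0.05), and 1021 had an unadjusted p under 0.05. Hepacam2, an adhesion molecule gene, differed by 2.41 at day 17 and by 0.56 over the other days (difference 1.85, limma adjusted p = 0.0491). Its specimens were at 1.77, 2.27 and 3.18 on day 17, above all specimens of the other days, which ran from −0.64 to 1.70. Like the genes that follow, Hepacam2 was picked for this difference, so such specimen values are only a description. Rgs4, a regulator of G protein signalling, was at 0.51 against −1.52 (difference 2.02, limma adjusted p = 0.00578), with daily means of −1.78, −1.89, −1.69 and −0.70 on days 7, 33, 49 and 105. It was thus not past the threshold at day 17 and lower in captured cells in every specimen of the other days.

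The other genes of that comparison were Nup155, Cbx5, Mphosph9, Arf5 and Fam98a. Nup155, a nuclear pore gene, was at 1.65 against 0.19 (difference 1.46, limma adjusted p = 0.0266), and Cbx5, the heterochromatin protein HP1 alpha, at 1.34 against 0.02 (1.33, limma adjusted p = 0.0329). Mphosph9, a mitotic phosphoprotein gene, was at 1.08 against −0.30 (1.38, limma adjusted p = 0.0468). Arf5, a trafficking GTPase gene, was the gene in the lower direction, at −1.89 against −0.56 (−1.33, limma adjusted p = 0.0468). Fam98a, which was outside the naming rule, was at 0.72 against −0.44. Day 7 lay nearest to day 17 for Nup155, Cbx5, Mphosph9 and Arf5, with means of 0.75, 0.98, 0.66 and −1.04. The count of 7 was 14 without specimen 1, 1 without specimen 2 and 0 without specimen 3, and 0 with the mean over probe sets.

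**Figure D5:**
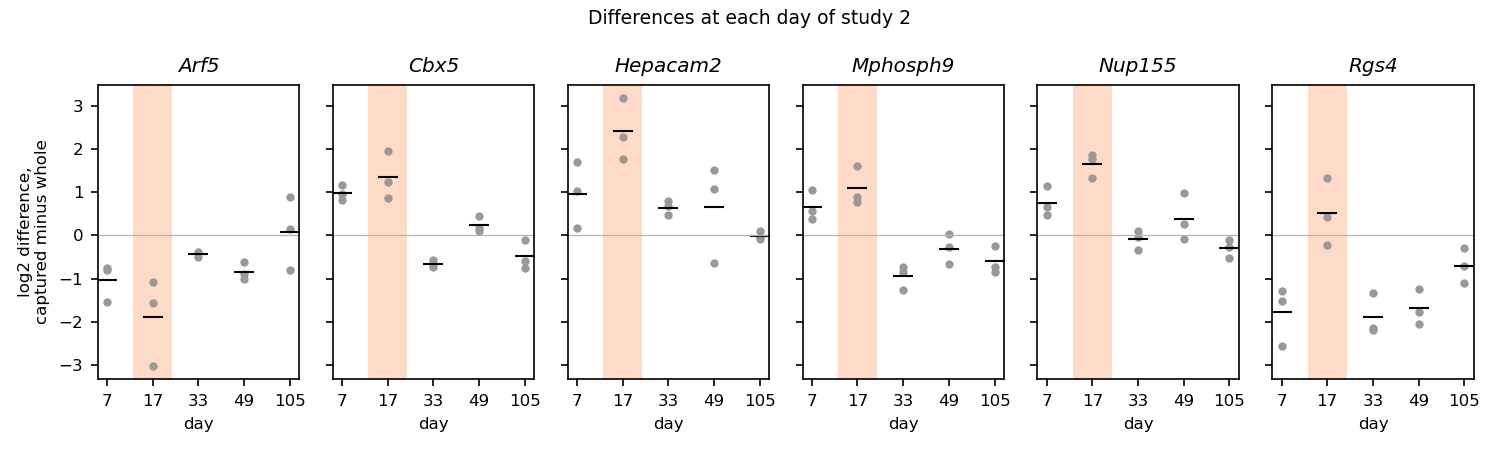
Log2 difference, captured minus whole, of 6 genes on each day of study 2, with 1 grey point per specimen, black bars at the means and day 17 shaded. Hepacam2, Nup155, Cbx5 and Mphosph9 have their highest mean on day 17, Arf5 its lowest, and Rgs4 is above 0 on average on day 17 alone.

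Study 1 had 5 captured arrays (4 specimen codes) and 3 whole-section arrays (2 specimen codes) at the same day, from the other cohort. The difference between the tissue types differed between the studies for 1460 genes (16.9% of the genes tested, 693 in the higher and 767 in the lower direction in study 2, limma adjusted p under 0.05). Called in both studies with the same sign were 1048 genes, which are 31.2% of the 3358 called here and 40.6% of the 2583 called in study 1, and 158 were called with opposite signs. Adipoq was at −5.13 in study 1, Thrsp at −5.98, Actg2 at −6.33 and Myh11 at −5.18, all called lower there too. Of the cell cycle list 2 of 24 genes differed between the studies, Cenpk and Bub1, a smaller share than the 16.9% of all genes. The division genes among the largest increases were chosen for their size in study 2. Of these Ncapg was at 0.77 in study 1 (difference 2.62, limma adjusted p = 0.000954), Cenpe at 0.19 (2.81, limma adjusted p = 0.00158), and Hmmr at 0.26 (2.53, limma adjusted p = 0.00224). Bub1 was at 0.33 (1.79, limma adjusted p = 0.0139).

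Of the plasma cell list 2 of 17 genes differed between the studies, a smaller share than the 16.9% of all genes. Among the 2 was Xbp1, which was at −0.03 in study 1 (difference 0.89, limma adjusted p = 0.0476). Slamf7 (1.59, limma adjusted p = 0.000928) and Tnfrsf17 (1.59, limma adjusted p = 0.0327) passed in study 1. Eaf2 (1.13, limma adjusted p = 0.131) and Prdm1 (0.17, limma adjusted p = 0.823) did not pass there. The median of the plasma cell list was 0.33 in study 1 and 0.09 over the other days of study 2. Among the largest gaps were genes with opposite signs. Snd1, a nuclease cofactor gene, was at −1.22 here and 2.06 in study 1 (−3.28, limma adjusted p = 0.000602), and the RNA-binding protein gene Hnrnpl at −1.98 and 1.69 (−3.66, limma adjusted p = 2.84e-07). Profilin, Pfn1, read 7.26, 7.17 and 6.76 in captured cells and 10.44, 10.14 and 10.48 in whole granuloma here (−3.29, SE 0.32, limma adjusted p = 6.04e-10) and was at 0.20 in study 1. In the other direction the interferon-induced gene Ifit1 was at 1.35 here and −2.30 in study 1 (3.64, limma adjusted p = 0.00293), and the imprinted zinc finger gene Plagl1 at −0.64 and −4.23 (3.59, limma adjusted p = 0.00264).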

How the data were processed

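Linear amplification preceded biotin labelling and hybridization to arrays with 22690 probe sets, per the labels' protocols. The log2 values deposited by the authors had been normalized with RMA in the program Partek, according to the submitters' processing notes. Program versions were not given in the sources used here. Intensities of single probes were not used here. The members, lists and tests were chosen with earlier results of these data known.

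The 82 arrays were quantile-normalized, averaged by specimen code and tissue type (53 averages, 19 groups, 33 codes) and fitted together with limma 3.58.1 in R 4.3.3, with the specimen code as random block (correlation 0.111, 34 residual degrees of freedom). The lists hold known marker or pathway genes or all symbols of a family, and the design fits the block because the tissue types share specimens. Deviations of same-numbered captured and whole averages from their group means correlated at 0.08, −0.20 and −0.08, so the pairing comes from the titles and not from the data. A gene was its brightest probe set with 1 symbol (12393 genes), tested when above the array median in at least 3 averages. Symbols came from the platform's gene table, updated where possible (20364 probe sets). 691 probe sets with several symbols and 1606 with none were left out.

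Named are the 12 largest increases and decreases with 1 sign in all specimens, up to 4 called members of each list, preset plasma cell and immunoglobulin genes, the 5 largest genes in each direction of the comparisons of days and studies, and the 3 most capture-variable genes. Other genes are named as members of a list or to complete a count. Alternatives covered scaling, block, filter, probe set choice, left-out specimens, single captures and the 3′ minus 5′ covariate. The fit was tested on simulated data, where it called 41% of 100 changes of 1 log2 unit and 93% of 100 changes of 2 units. It made 11 false calls among the unchanged genes. A gene that did not pass may thus still differ. The number of arrays limits the precision.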

Additional observations from a re-analysis of the deposited data

Results flagged for a closer look

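Results are listed here because the gap between captures and whole granuloma at day 17 of study 2 itself differed, by an interaction in limma with an adjusted p under 0.05, from that of another group of samples. Values in brackets are differences of log2 differences, day 17 of study 2 minus the other group. Against the mean of the other days of study 2 these were Rgs4 (2.02), Hepacam2 (1.85), Nup155 (1.46), Mphosph9 (1.38), Cbx5 (1.33) and Arf5 (−1.33).

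Against day 17 of study 1, positive values were found for Ncapg (2.62), Cenpe (2.81), Hmmr (2.53), Cenpk (1.67), Bub1 (1.79), Hepacam2 (1.78) and Cbx5 (1.02). Others were those of Wdr12 (1.98), Sdad1 (1.51), Mrpl22 (1.72), Ndufaf4 (1.30), Ahctf1 (1.77) and Zscan26 (2.46). Atf6 was at 1.33 and Xbp1 at 0.89. Of the cell cycle list 2 of 24 genes differed, of the mitochondrial ribosomal list 9 of 74 and of the respiratory list 8 of 80, each a smaller share than the 16.9% of all genes. Further positive values were those of Myh9 (2.76), Igkv19-93 (3.23), Cpa3 (2.93), Gzmb (1.33), Rgs4 (1.35), Ifit1 (3.64), Plagl1 (3.59), Cysltr1 (3.51) and A2m (3.30).

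Negative values, which mean that captured cells stood lower against whole granuloma in study 2 than in study 1, were found for H2-DMb2 (−2.65), Cd37 (−1.77), Batf3 (−1.30), Cxcr2 (−1.28), C5ar1 (−1.33), Psmb8 (−1.74) and Psmb10 (−1.58). They were also found for Igkv4-68 (−2.23), Kdr (−1.72), Il6ra (−1.65), Zfp36 (−1.77), Pfkl (−1.43), Rps9 (−1.99), Sdhc (−1.14), Psmb2 (−1.68) and Arf5 (−2.12). The most negative were Hnrnpl (−3.66), Rraga (−3.62), Pfn1 (−3.49), Coq10a (−3.41) and Snd1 (−3.28).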

How the results depend on the processing

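The counts of 1736 higher and 1622 lower genes were 39 and 7340 on deposited values, 2773 and 1349 with arrays centred on their medians, 1148 and 1058 in the 6 averages alone with a fixed replicate block, and 764 and 1454 with the 3′ minus 5′ covariate. Without each specimen in turn they were 1178 to 1328 and 1147 to 1330, and without the block 1577 and 1492. Genes whose difference on day 17 stood apart from the other days numbered 7, and 11 with centring, 1 without the block, 3 without the filter, 0 with the mean over probe sets, 16 with the lower numbered capture and 0 to 14 without a specimen. Genes that differed between studies numbered 1460, and 4107 on deposited values. The median gene with the covariate was itself at −0.30, near the plasma cell and cell cycle medians given next. With the covariate the sign changed for Tnfrsf17 (−0.37), Batf3 (0.15), Dnajc3 (−0.49), Sec61b (−0.57), Edem1 (−1.15) and Cxcl2 (0.55), and for the medians of plasma cell (−0.30), dendritic (0.56), mast cell (−0.86), acinar (−0.83), secretion (−1.15), cell cycle (−0.32), Myc target (−0.80), mitochondrial (−0.47) and cytosolic ribosomal (−1.51) and respiratory (−1.20) lists. On deposited values, where the median gene was at −1.65, it changed for Tnfrsf17 (−0.17), Gzmb (−1.08), Elane (−0.89), Cpa3 (−0.089), Pdgfrb (−0.047), Atf6 (−0.093), Edem1 (−0.15), Nolc1 (−0.36), Ccl12 (−0.18), Mrps31 (−0.024), Mrpl1 (−0.10), Rpl12 (−0.10), Rpl37 (−0.094), Rpl14 (−0.35), Sdc1 (−1.09), Xbp1 (−0.16), Irf4 (−0.41), Derl3 (−1.44), Myc (−0.95), Igk (−1.60), Rgs4 (−1.35), Nup155 (−0.055), Mphosph9 (−0.63) and Cbx5 (−0.27), and for the medians of plasma cell (−0.44), mast cell (−1.78), acinar (−1.46), secretion (−0.74), cell cycle (−0.64), Myc target (−1.11), mitochondrial (−1.13), cytosolic ribosomal (−0.46) and respiratory (−1.11) lists. With centring it changed for the fibroblast (0.93), glycolysis (0.50) and proteasome (0.56) medians. The proteasome median was 0.30 on deposited values relative to the median gene, an alternative chosen after seeing the data. List medians are named here where the sign changed by a move of at least the SD between the specimens. Smaller moves also changed signs, as for fibroblast (0.66), glycolysis (0.24) and mast cell (−0.14) medians on that alternative. Without specimen 2 the fibroblast (0.19) and dendritic (0.14) medians did so, and without specimen 3 the T and NK median (0.22). The acinar median was −0.14 with the stricter filter and Ighm −1.46 over its probe sets. Of 127 named genes called, 44 kept direction and call under the alternatives other than the 6 averages alone and the deposited values, Slamf7, Ncapg, Cidec, Cfb and Cd74 among them, and 35 of these kept them on deposited values too. Of these 127 genes the covariate ended the call of 65 without a change of sign, beside the 6 whose sign changed. The causes were not tested.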
